A study of Mus musculus with 4 samples.

Results

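MYC and ribosome biogenesis genes were followed through 11 classes of mouse bone marrow progenitor and blood cells, and between surgery and sham. The 34 members were chosen by name, as MYC, its partner Max and factors that make ribosomes or lie directly downstream of MYC. All 34 were among the 32227 genes of the count tables. The study measured single-cell RNA (PIPseq) in marrow sorted as Lineage– cKit+ Sca1+/- cells, to ask what ischemic injury does to blood stem and progenitor cells. The surgery group was femoral artery ligation, and the other group was sham surgery. Every mouse was wild type (WT) and had been injected with E0771 breast cancer cells, a mouse mammary tumour line, 3 days before the operation, and marrow was taken on day 9 after it. There was thus no group without tumour cells or without an operation, and the labels used here give no age or sex. Each group held 4 hashtagged replicates, 2 in each of 2 batches, and a batch was 1 pair of RNA and hashtag libraries. One label gives a whole library a single treatment, whereas the hashtag names place surgery and sham replicates in both batches; groups follow the hashtag names. The labels do not say whether a hashtag marks 1 mouse or a pool, so each p-value measures only the spread between these replicates.

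Ribosome production begins in the nucleolus, where RNA polymerase I copies the ribosomal DNA. The long precursor RNA is then modified by box C/D and H/ACA particles, cleaved by the small subunit processome and by large subunit factors, and exported as 40S and 60S precursors. MYC, bound to Max at E-box sequences, is known to raise transcription of many of these factors together with the polyamine enzymes Odc1 and Srm. In blood formation this program is known for following growth: it is high in dividing progenitors and falls as granulocytes mature.

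Levels are given as UMIs per 1000000 gene UMIs (CPM) in the sum of all cells of a class in 1 replicate, so they describe a share of a cell class's RNA. In such sums, fewer cells with a transcript and less of it per cell cannot be told apart. In all, 26877 cells carried 1 hashtag and passed the filters, 1877 to 5875 per replicate, with 19450143 to 51712572 gene UMIs per replicate and a median of 5860.5 to 12392 UMIs per cell. Batch 2 was the deeper batch. Cells were placed in classes by marker genes that are not members, so a class name means cells like that type. The largest class was neutrophil-granulocyte progenitors with 5831 cells, and the smallest compared was late neutrophils with 337. The gate for epithelial and E0771 cells held 4 cells. Only 18.7% of late neutrophils, 44.1% of dendritic cell progenitors, 50.1% of neutrophil-granulocyte progenitors and 60.7% of HSC and early multipotent progenitors fell in a Leiden cluster of the same name, against 72.3% to 99.5% of the cells in the other 7 classes (77.3% of lymphoid-primed progenitors). The dendritic cell progenitors were also led by the B-cell genes Ighd and Bank1. The labelled sort should remove B, T and mature cells, yet the B-cell class held 3325 cells. That class was led by Ebf1, Vpreb1, Vpreb3 and Igll1, which are among its gate markers and are known from pro-B and pre-B cells. The name B cells below therefore includes B-cell progenitors.

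The E-box CACGTG, the sequence MYC and Max are known to bind, stood in the promoter window of 6 members, and 5 of these are shown for its place relative to the start of transcription. Promoter windows of 300 bases, 250 before the start site and 50 after it, came from RefSeq (GRCm38.p6) and matched 26 of the 34 members in 33 windows. CACGTG occurred in 6 of the 33 windows (18.2%) and in 2349 of all 32851 promoter windows (7.15%). A variant E-box, CACGCG on either strand (CGCGTG when read on the other), occurred in 10 of the 33 windows (30.3%) in 9 members and in 9.27% of all windows. Both strands were searched. The 2 readings of the variant overlapped in 1 window of Mybbp1a, which is not shown. A match is a description of the letters and not a measured binding site. The stretches are written 5′ to 3′ on the strand of the gene, with the motif in capitals.
Nop2 (chr6:125131778-125131873, plus strand): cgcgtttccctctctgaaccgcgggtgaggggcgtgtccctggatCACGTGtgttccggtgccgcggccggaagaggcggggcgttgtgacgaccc
Utp20 (chr10:88826765-88826789, minus strand): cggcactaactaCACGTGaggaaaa
Mybbp1a (chr11:72441355-72441376, plus strand): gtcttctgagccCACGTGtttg
Max (chr12:76962234-76962263, minus strand): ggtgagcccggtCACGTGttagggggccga
Wdr43 (chr17:71616220-71616249, plus strand): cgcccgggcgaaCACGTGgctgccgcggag
The variant is shown for Nhp2 and Odc1, since both recur among the results.
Nhp2 (chr11:51619764-51619793, plus strand): ggaggcggcggcCGCGTGgttcctctatgc
Odc1 (chr12:17544727-17544822, plus strand): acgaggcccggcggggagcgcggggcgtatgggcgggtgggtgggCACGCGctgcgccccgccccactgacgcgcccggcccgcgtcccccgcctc
The first base of CACGTG lay 60 bases before the start site in Nop2 and 37 bases after it in Utp20. No promoter window was matched for Myc, Npm1, Bop1, Rrs1, Rrp12, Srm, Fbl and Tcof1.

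Ribosome biogenesis genes were most abundant in erythroid and megakaryocyte progenitors and least abundant in late neutrophils. The summed level of the 34 members was 7951 ± 431 CPM in erythroid progenitors, 7463 ± 178 in megakaryocyte progenitors and 6759.6 ± 334 in HSC and early multipotent progenitors (SD, n = 8 replicates of both groups). It was 2981 ± 259 CPM in late neutrophils. Neutrophil-granulocyte (6232 ± 189.9), monocyte (6137 ± 282) and lymphoid-primed progenitors (6068 ± 503) lay within their spread of each other. The highest mean of a member fell in erythroid progenitors for 14 members and in megakaryocyte progenitors for 11, and a member is said to peak in the class of its highest mean. For 20 of the 34 members that class led the next by less than the larger SD of the 2. Both classes come from the same replicates, and their difference within replicates was not tested, so their order is not established here. Mybbp1a, Nop16 and Wdr12 were level in their first 2 classes. The lowest fell in late neutrophils for 21 members. The ratio of highest to lowest class mean ran from 1.66 for Pes1 to 6.58 for Odc1.

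Each class was also tested against the mean of the other 10 with edgeR's quasi-likelihood test, with replicate as a block, and an adjusted p under 0.05 over 12458 genes was called. Folds follow TMM scaling and levels in CPM follow the library total, so the class with the highest level of a member need not have its highest fold. In erythroid progenitors 32 of the 34 members were higher and 0 lower, beside 43.3% and 37.6% of all genes. In megakaryocyte progenitors 31 of the 34 members were higher and 1 lower, beside 26% and 23.5% of all genes. In neutrophil-granulocyte progenitors 30 of the 34 members were higher and 2 lower, beside 40.6% and 35% of all genes, and in monocyte progenitors 28 of the 34 members were higher and 1 lower, beside 38.5% and 31.1% of all genes. In HSC and early multipotent progenitors 22 of the 34 members were higher and 1 lower, beside 31.1% and 23.4% of all genes. Lymphoid-primed progenitors were mixed: there 11 of the 34 members were higher and 4 lower, beside 27.4% and 20.9% of all genes. In the remaining classes the members were mostly lower. In B cells 1 of the 34 members was higher and 28 lower, beside 34.6% and 32.5% of all genes, and in basophil-mast progenitors 1 of the 34 members was higher and 25 lower, beside 28.1% and 25.1% of all genes. In T, NK and innate lymphoid cells 1 of the 34 members was higher and 23 lower, beside 24.1% and 25.3% of all genes, in dendritic cell progenitors 2 of the 34 members were higher and 18 lower, beside 19.6% and 17.9% of all genes, and in late neutrophils 0 of the 34 members were higher and 27 lower, beside 23% and 27% of all genes. Since a large share of all genes were called in most classes, the counts describe the direction of the group and set no single member apart.

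**Figure D1:**
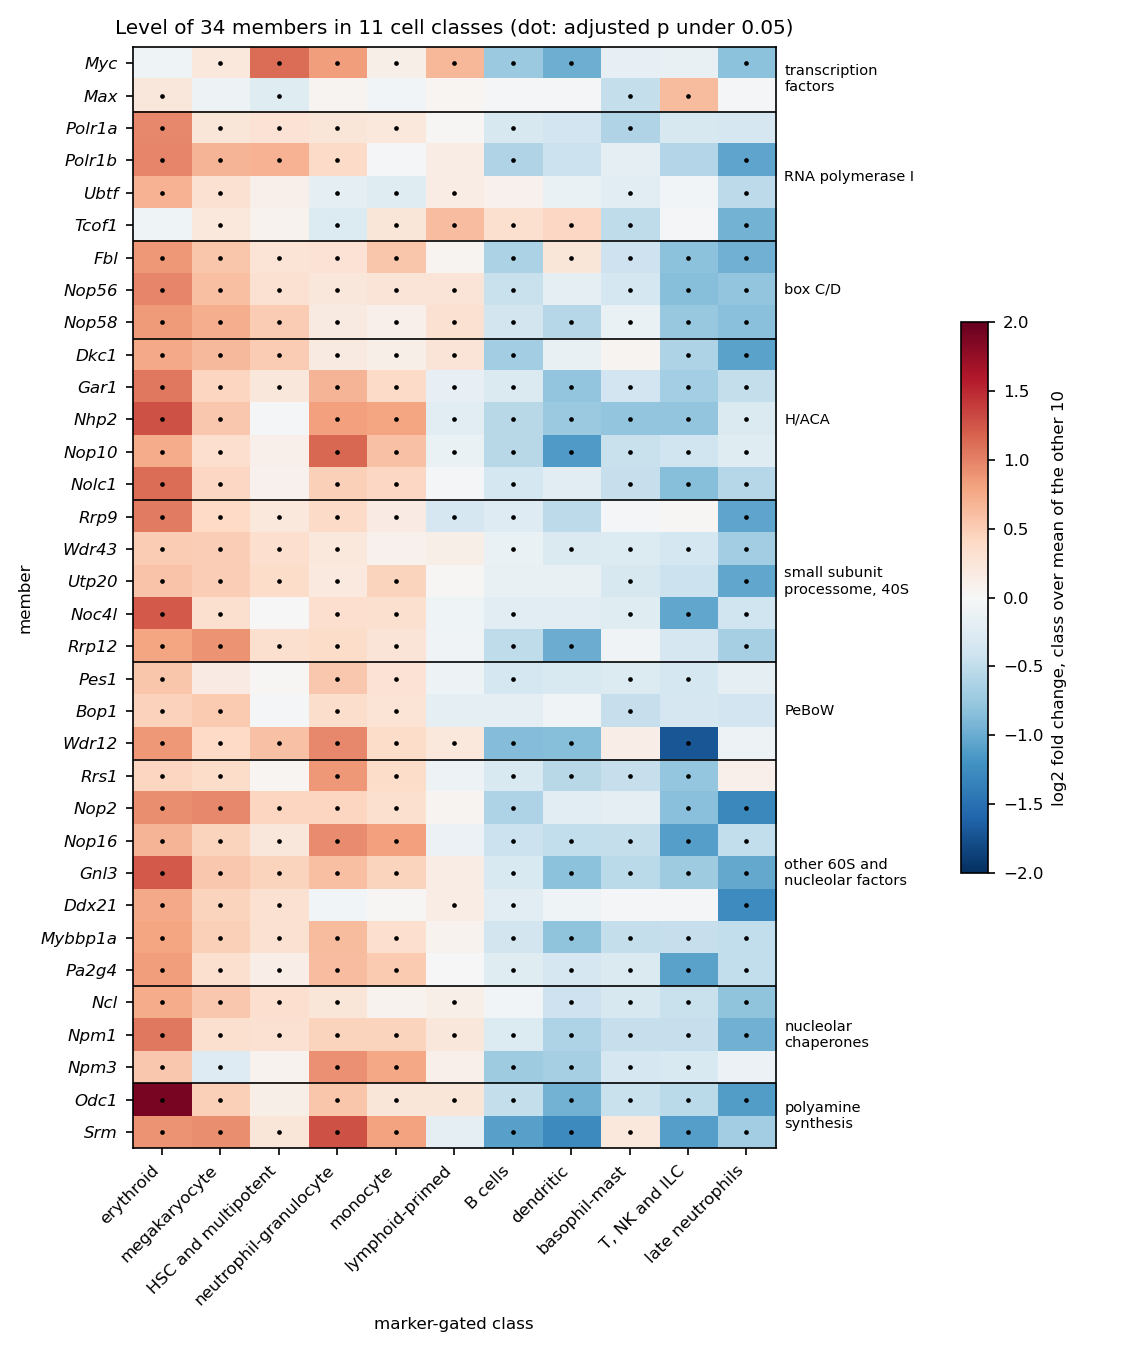
Log2 fold change of each of the 34 members (down the page, grouped by role) in each of 11 marker-gated classes over the mean of the other 10, with dots where the adjusted p was under 0.05. Erythroid progenitors are red for nearly every member (32 of 34 called higher), late neutrophils are blue (27 called lower), and Myc, Max and Tcof1 break the pattern.

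Myc (ENSMUSG00000022346, chr15:61985391-61990374, plus strand), the transcription factor of the module, peaked in other classes than most members. Its levels in HSC and early multipotent progenitors were 151, 193 and 238 CPM at the lowest, median and highest of 8 replicates, a mean of 195 ± 36.2 and a log2 fold change over the other classes of 1.12 ± 0.06 (SE, adjusted p = 2.3e-34). Lymphoid-primed progenitors followed at 144 ± 28.2 CPM, neutrophil-granulocyte progenitors at 128 ± 16, megakaryocyte progenitors at 110.1 ± 27.8 and monocyte progenitors at 88.9 ± 18.3 (SD, n = 8). Neighbours in that order overlapped in their replicates. In erythroid progenitors, where 14 members had their highest mean, Myc had 75.8 ± 17.6 CPM, with a log2 fold change of -0.09 ± 0.06 and an adjusted p of 0.204. Basophil-mast progenitors had 78.2 ± 14.2 CPM, T, NK and innate lymphoid cells 76.7 ± 23.2, B cells 61.7 ± 15.7 and dendritic cell progenitors 55 ± 21.3. Late neutrophils were lowest at 45.6 ± 14.2 CPM. Max, the partner through which MYC binds DNA, was highest in T, NK and innate lymphoid cells at 117 ± 36.8 CPM, within 1 SD of lymphoid-primed progenitors (81.4 ± 16.1), and lowest in basophil-mast progenitors at 53.2 ± 10.05. Of the MYC relatives, Mycn had mean levels of 47.5 CPM in megakaryocyte progenitors and 17.9 in HSC and early multipotent progenitors, and Mycl 30.3 CPM in dendritic cell progenitors.

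For each member, the log2 mean CPM in the 11 classes was centred on its mean over them. It was then set against the median of the other members, with Myc left out of that median. Pearson's r was 0.97 for Gnl3, 0.96 for Npm1 and 0.96 for Nop56, the members nearest to the shared pattern. It was -0.12 for Max, 0.40 for Tcof1, 0.60 for Npm3 and 0.65 for Myc, the 4 farthest from it. These are descriptions over classes that share replicates, libraries and, within a class, depth.

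RNA polymerase I genes differed in the class of the highest mean, by a small lead for all but Polr1a. Ubtf, the factor that keeps ribosomal DNA open, peaked in erythroid progenitors (161 ± 9.98 CPM), within 1 SD of megakaryocyte progenitors (157 ± 18.6 CPM), and was lowest in late neutrophils (75.9 ± 16.7 CPM). The 8 replicates of erythroid progenitors ran over 143, 159.9 and 176 CPM for Ubtf, lowest, median and highest, with a log2 fold change of 0.70 ± 0.04 (adjusted p = 7.7e-30). Polr1a, the largest subunit of the polymerase, peaked in erythroid progenitors (58.6 ± 5.99 CPM) and was lowest in basophil-mast progenitors (24 ± 5.49 CPM). Polr1b, its second catalytic subunit, peaked in HSC and early multipotent progenitors (30.2 ± 4.25 CPM), within 1 SD of erythroid progenitors (29.9 ± 3.01 CPM), and was lowest in late neutrophils (9.05 ± 4.56 CPM). Tcof1, the nucleolar protein treacle, peaked in lymphoid-primed progenitors (179.5 ± 27.6 CPM), within 1 SD of dendritic cell progenitors (168 ± 36.6 CPM), and was lowest in late neutrophils (52.9 ± 11.4 CPM). Tcof1 was the 1 member with its highest mean in lymphoid-primed progenitors, at 136, 180.4 and 213 CPM (lowest, median, highest; log2 fold change 0.61 ± 0.06, adjusted p = 3.0e-17). In neutrophil-granulocyte progenitors Tcof1 was lower than in the other classes (-0.27 ± 0.04), as was Ubtf (-0.18 ± 0.04).

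The box C/D particle genes, whose products guide 2′-O-methylation of ribosomal RNA, were high in both erythroid and megakaryocyte progenitors. Fbl, the methyltransferase fibrillarin, peaked in megakaryocyte progenitors (540.1 ± 25.6 CPM), within 1 SD of erythroid progenitors (535 ± 24.2 CPM), and was lowest in late neutrophils (163 ± 24.7 CPM). Its 8 megakaryocyte values ran over 503, 545 and 577 CPM, lowest, median and highest, with a log2 fold change of 0.55 ± 0.05 (adjusted p = 4.0e-20). Nop56, a scaffold of the particle, peaked in erythroid progenitors (328 ± 18 CPM), within 1 SD of megakaryocyte progenitors (318 ± 20.9 CPM), and was lowest in late neutrophils (103 ± 13.6 CPM). Nop58, the other scaffold, peaked in megakaryocyte progenitors (387 ± 31.5 CPM) and was lowest in late neutrophils (118 ± 14.5 CPM). The H/ACA genes, whose products convert uridines to pseudouridine, were more divided. Nop10, a small core protein of that particle, peaked in neutrophil-granulocyte progenitors (786 ± 41 CPM) and was lowest in dendritic cell progenitors (262 ± 76.1 CPM). The neutrophil-granulocyte replicates of Nop10 ran over 727, 782 and 843 CPM, above every replicate of the other classes (log2 fold change 1.14 ± 0.04, adjusted p = 8.7e-51). Nhp2, a core protein beside it, peaked in erythroid progenitors (354 ± 34.1 CPM) and was lowest in T, NK and innate lymphoid cells (108 ± 32.8 CPM). Gar1, another core protein, peaked in erythroid progenitors (167 ± 15.7 CPM) and was lowest in late neutrophils (63.4 ± 12.4 CPM). Dkc1, the pseudouridine synthase dyskerin, peaked in megakaryocyte progenitors (237 ± 27.4 CPM), within 1 SD of HSC and early multipotent progenitors (217 ± 32.9 CPM), and was lowest in late neutrophils (64.5 ± 8.68 CPM). Nolc1, the chaperone Nopp140 that binds both particles, peaked in erythroid progenitors (207 ± 18.5 CPM) and was lowest in late neutrophils (72.9 ± 17.6 CPM).

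Genes of the small subunit processome and 40S maturation peaked in megakaryocyte or erythroid progenitors, all 5 of them. Wdr43, a subunit of the processome, peaked in megakaryocyte progenitors (190.3 ± 18.2 CPM), within 1 SD of HSC and early multipotent progenitors (173 ± 24.5 CPM), and was lowest in late neutrophils (72.5 ± 13.3 CPM). For Wdr43 the 8 megakaryocyte values ran over 169.9, 186 and 228 CPM, with a log2 fold change of 0.49 ± 0.06 (adjusted p = 2.5e-13). Utp20, another processome subunit, peaked in megakaryocyte progenitors (50.7 ± 11.7 CPM), within 1 SD of HSC and early multipotent progenitors (47 ± 6.49 CPM), and was lowest in late neutrophils (13.8 ± 6.59 CPM). Rrp9, a protein of the U3 particle, peaked in erythroid progenitors (40.1 ± 4.18 CPM), within 1 SD of megakaryocyte progenitors (30.9 ± 10.5 CPM), and was lowest in late neutrophils (10.4 ± 2.99 CPM). Noc4l, a 40S maturation factor, peaked in erythroid progenitors (62.5 ± 6.19 CPM) and was lowest in T, NK and innate lymphoid cells (17.2 ± 7.84 CPM). Rrp12, an export factor for both subunits, peaked in megakaryocyte progenitors (26.7 ± 5.99 CPM) and was lowest in dendritic cell progenitors (6.60 ± 4.89 CPM).

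Large subunit genes held the PeBoW complex, which processes the precursor of the 28S and 5.8S RNAs. Wdr12, a PeBoW member, peaked in neutrophil-granulocyte progenitors (104 ± 7.84 CPM), within 1 SD of HSC and early multipotent progenitors (103 ± 11.7 CPM), and was lowest in T, NK and innate lymphoid cells (21.9 ± 8.61 CPM). It had 92.3, 105 and 117 CPM across neutrophil-granulocyte progenitors (log2 fold change 0.97 ± 0.04, adjusted p = 4.9e-41) and the lowest fold of any member in T, NK and innate lymphoid cells, -1.71 ± 0.17. Pes1, its partner pescadillo, peaked in erythroid progenitors (80.3 ± 3.99 CPM), within 1 SD of neutrophil-granulocyte progenitors (77.3 ± 2.93 CPM), and was lowest in late neutrophils (48.5 ± 4.37 CPM). Bop1, the third of the complex, peaked in megakaryocyte progenitors (46.5 ± 10.1 CPM), within 1 SD of erythroid progenitors (37 ± 4.19 CPM), and was lowest in basophil-mast progenitors (22.4 ± 3.98 CPM). So the highest means of the complex fell in 3 classes, with a lead under 1 SD for each. Of the other 60S and nucleolar factors, Pa2g4 and Gnl3 were highest in erythroid progenitors by more than 1 SD. Pa2g4, a protein that binds 60S subunits, peaked in erythroid progenitors (486 ± 42.6 CPM) and was lowest in T, NK and innate lymphoid cells (172 ± 50.7 CPM). Erythroid values of Pa2g4 ran over 427, 496 and 539 CPM (log2 fold change 0.83 ± 0.04, adjusted p = 4.4e-39). Gnl3, the GTP-binding protein nucleostemin, peaked in erythroid progenitors (320.1 ± 33.5 CPM) and was lowest in late neutrophils (78 ± 20.8 CPM). Mybbp1a, a nucleolar Myb-binding protein, peaked in erythroid progenitors (198 ± 14 CPM), within 1 SD of megakaryocyte progenitors (198 ± 15.1 CPM), and was lowest in late neutrophils (86.1 ± 16.8 CPM). The remaining 4 led their next class by less than 1 SD. Nop2, a methyltransferase of the 28S RNA, peaked in megakaryocyte progenitors (50.6 ± 12.5 CPM), within 1 SD of erythroid progenitors (38.7 ± 1.74 CPM), and was lowest in late neutrophils (10.1 ± 5.74 CPM). Nop16, a 60S assembly factor, peaked in monocyte progenitors (90.8 ± 5.41 CPM), within 1 SD of neutrophil-granulocyte progenitors (90.8 ± 5.54 CPM), and was lowest in T, NK and innate lymphoid cells (28.3 ± 14.6 CPM). Rrs1, a factor that loads the 5S particle, peaked in neutrophil-granulocyte progenitors (64 ± 3.36 CPM), within 1 SD of megakaryocyte progenitors (58.1 ± 9.55 CPM), and was lowest in T, NK and innate lymphoid cells (27.5 ± 9.05 CPM). Ddx21, an RNA helicase, peaked in megakaryocyte progenitors (218 ± 20.3 CPM), within 1 SD of erythroid progenitors (217 ± 17.2 CPM), and was lowest in late neutrophils (56.2 ± 16.1 CPM).

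Odc1 had the largest erythroid excess of any member, and the nucleolar chaperones differed in the class of their highest mean. Npm1, nucleophosmin, which carries assembly factors, peaked in erythroid progenitors (1195 ± 76.3 CPM) and was lowest in late neutrophils (321 ± 65.8 CPM). Npm1 had 1111, 1187 and 1353 CPM in erythroid progenitors (lowest, median, highest; log2 fold change 1.05 ± 0.04, adjusted p = 1.3e-45). Ncl, nucleolin, which binds the precursor RNA, peaked in megakaryocyte progenitors (982 ± 61.7 CPM) and was lowest in late neutrophils (328 ± 40.9 CPM). Npm3, a relative of nucleophosmin, peaked in neutrophil-granulocyte progenitors (335 ± 15.2 CPM), within 1 SD of monocyte progenitors (329 ± 12 CPM), and was lowest in B cells (154 ± 23.8 CPM). Polyamine enzymes were strongly graded between classes. Odc1, ornithine decarboxylase, which opens polyamine synthesis, peaked in erythroid progenitors (263 ± 15.3 CPM) and was lowest in late neutrophils (40.04 ± 6.84 CPM). Odc1 had 242, 262 and 287 CPM in erythroid progenitors, and every erythroid replicate was above every replicate of the other classes (log2 fold change 1.90 ± 0.04, adjusted p = 3.4e-69). Srm, spermidine synthase, peaked in megakaryocyte progenitors (155 ± 13.2 CPM), within 1 SD of neutrophil-granulocyte progenitors (152 ± 12.6 CPM), and was lowest in T, NK and innate lymphoid cells (41.6 ± 12.8 CPM). For Srm the highest fold was in neutrophil-granulocyte progenitors, 1.27 ± 0.05, and the lowest in dendritic cell progenitors, -1.27 ± 0.19.

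**Figure D2:**
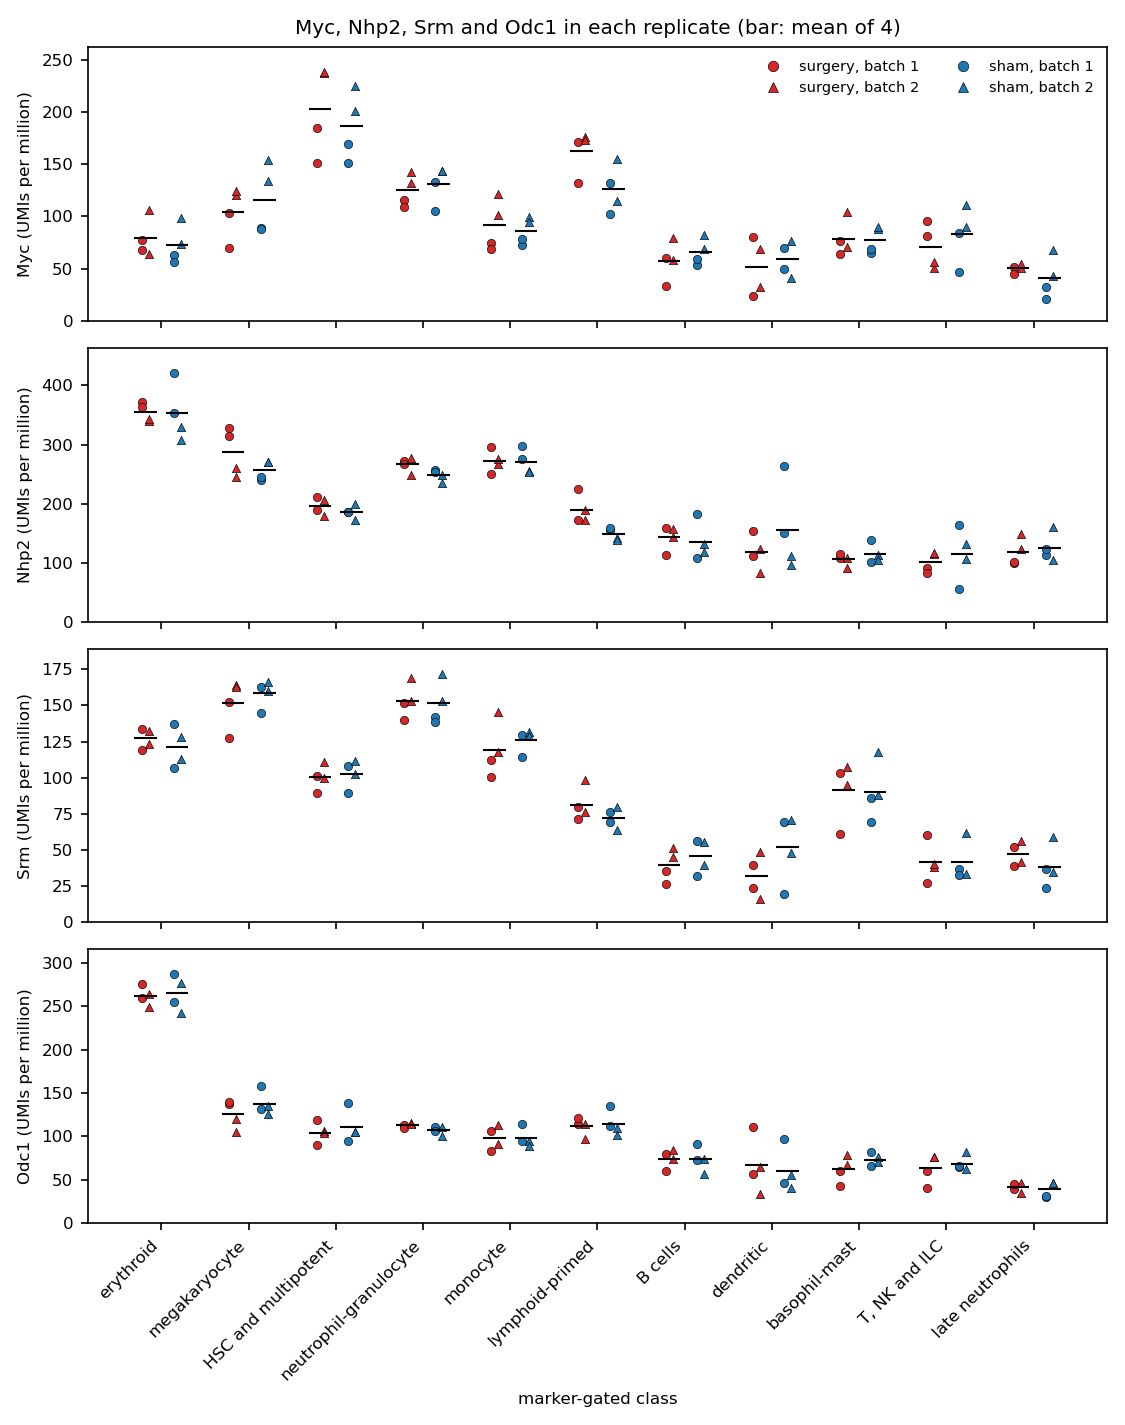
CPM of Myc, Nhp2, Srm and Odc1 in each of 8 replicates of each class, surgery replicates left of sham, with batch 1 as circles, batch 2 as triangles and bars at the mean of 4. Myc peaks in HSC and early multipotent progenitors (195 ± 36.2) and Odc1 in erythroid progenitors (263 ± 15.3), and surgery and sham overlap in nearly every class.

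The counts between classes depended on the scaling and, in lymphoid-primed progenitors, on how the cells were grouped. Without TMM scaling the median of all genes moved by more than 0.1 in several classes, for example to -0.23 in neutrophil-granulocyte progenitors, -0.19 in erythroid progenitors and 0.16 in HSC and early multipotent progenitors. Members then stood at 30 higher and 0 lower in HSC and early multipotent progenitors and 17 higher and 0 lower in lymphoid-primed progenitors, and at 17 higher and 4 lower in neutrophil-granulocyte progenitors, 22 higher and 3 lower in monocyte progenitors and 31 higher and 2 lower in erythroid progenitors. The matching shares of all genes called were 43.4% higher and 13.7% lower in HSC and early multipotent progenitors, 35.3% and 13.8% in lymphoid-primed progenitors, 27% and 50.1% in neutrophil-granulocyte progenitors, 29.3% and 41.2% in monocyte progenitors and 34.7% and 45.7% in erythroid progenitors. Relative to the median of all genes, the members' median log2 fold was 0.79 in erythroid, 0.45 in megakaryocyte and 0.39 in neutrophil-granulocyte progenitors. It was 0.23 in HSC and early multipotent progenitors and -0.55 in late neutrophils. These values were the same with or without TMM to 2 decimals. Scaling shifts all genes of a class nearly alike, so that sameness follows from the method and is no test of stability. Both scalings called 31 members higher in erythroid progenitors, 31 in megakaryocyte progenitors, 22 in HSC and early multipotent progenitors, 22 in monocyte progenitors, 17 in neutrophil-granulocyte progenitors and 11 in lymphoid-primed progenitors, and lower 27 in late neutrophils, 25 in basophil-mast progenitors, 22 in T, NK and innate lymphoid cells, 20 in B cells and 13 in dendritic cell progenitors, and no member was called in opposite directions. The share of all genes called under both scalings was not counted. It cannot exceed the smaller of the shares under each, which was 34.7% higher in erythroid progenitors and 27% higher in neutrophil-granulocyte progenitors. Leiden clusters in place of the gates gave lymphoid-primed progenitors 3 members higher and 12 lower, beside 28.6% and 20.9% of all genes. That fit compared 10 classes, without late neutrophils, so the mean of the other classes changed along with the boundary. The part of each in the turned direction was not tested. Strand handling of the counting, not given in the sources used here, bears on 12 members that overlap another gene, among them Nhp2 with Rmnd5b and Mybbp1a with Spns2, so their reads may be shared. The same holds for Npm1, of which processed copies are known in the genome.

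Other genes of ribosome production, listed apart from the members, were graded between classes in a similar order. In erythroid progenitors the other small subunit genes stood at 39 higher and 1 lower of 43, other 60S genes at 37 higher and 0 lower of 41, other RNA polymerase I genes at 13 higher and 3 lower of 17 and other MYC targets in growth and metabolism at 22 higher and 4 lower of 26, beside 43.3% of all genes higher and 37.6% lower in that class. In B cells the same lists stood at 6 higher and 23 lower of 43, 6 higher and 23 lower of 41, 3 higher and 9 lower of 17 and 2 higher and 20 lower of 26, beside 34.6% and 32.5% of all genes. Across the 11 classes, the members' median fold correlated with that of the other small subunit genes at r = 0.984, MYC targets 0.979, 60S genes 0.971 and RNA polymerase I genes 0.941, a description of classes that share replicates and libraries. For the S phase list r was 0.602 and for the G2 and M phase list 0.255.

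Cell cycle genes moved with the members in some classes and not in others. In erythroid progenitors both were high: 14 of 14 S phase and 16 of 16 G2 and M phase genes were called higher. In megakaryocyte progenitors the members' median log2 fold was 0.45, against -0.12 for S phase and -0.01 for G2 and M phase genes. In HSC and early multipotent progenitors it was 0.25, against -0.21 and -0.46, and the G2 and M phase list stood at 0 higher and 16 lower of 16. B cells were the reverse, with the members at -0.35 and G2 and M phase genes at 0.98, 16 higher and 0 lower of 16. Late neutrophils had the members at -0.68, with S phase genes at 0.33 and G2 and M phase genes at 0.20. Their class name thus does not mean cells out of cycle. When only cells with few cycle transcripts were kept, 6 classes and 31 members could be compared over 7723 genes. There 18 members were higher and 0 lower in HSC and early multipotent progenitors, beside 23.2% and 17% of all genes. In B cells 1 was higher and 25 lower, beside 34.9% and 32.2% of all genes. That subset left too few erythroid cells to compare.

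**Figure D3:**
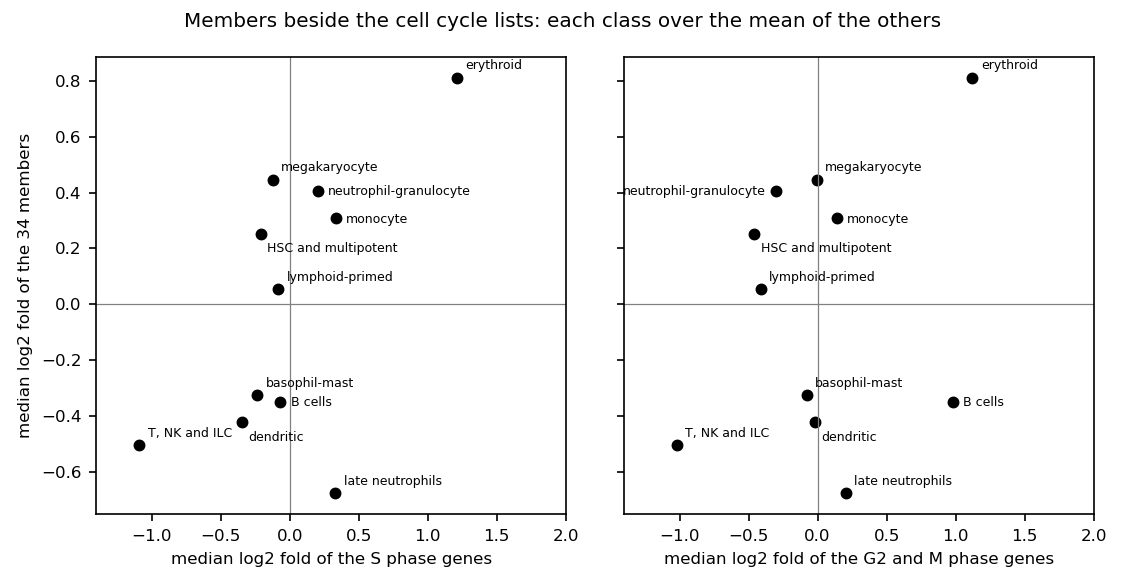
Median log2 fold change of the 34 members in a class over the mean of the other classes (vertical axis) against the median of S phase genes (left) and of G2 and M phase genes (right), 1 point per class. Erythroid progenitors are high on both axes, while B cells lie right of 0 (0.98) on the G2 and M axis and below 0 (-0.35) for the members.

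The share of cells with a Myc UMI, after each cell was thinned to 2000 UMIs, showed the same leading classes. It was 28.4 ± 4.98% in HSC and early multipotent progenitors, 23.2 ± 2.88% in lymphoid-primed progenitors and 21.5 ± 2.77% in neutrophil-granulocyte progenitors (SD, n = 8). Thinning kept 10623 surgery and 13342 sham cells, of 11776 and 15101. Among the classes with enough cells at that depth, late neutrophils (6.54 ± 4.59%) and B cells (7.89 ± 1.76%) were lowest. Dendritic cell progenitors had too few such cells. Thinned to 1000 UMIs they had 2.44 ± 1.83%, against 3.92 ± 3.99% in late neutrophils and 3.68 ± 1.44% in B cells. Free RNA can give a Myc UMI in any class and was not measured, so a low share need not mean expression in those cells. The median depths of late neutrophils and B cells were 8366 and 2780 UMIs per cell, against 6620.5 in HSC and early multipotent progenitors.

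No comparison of the Myc share between surgery and sham passed the threshold, and the test could hardly have passed one. All cells had 18.4 ± 2.79% of cells in the surgery replicates and 17.8 ± 2.32% in the sham replicates (exact p = 0.800), and HSC and early multipotent progenitors had 28.7 ± 5.16% of cells in the surgery replicates and 28.1 ± 5.57% in the sham replicates (exact p = 0.914), both two-sided. Lymphoid-primed progenitors had 23.6 ± 3.43% of cells in the surgery replicates and 22.8 ± 2.68% in the sham replicates (exact p = 0.800). Their difference depended on the depth: thinned to 1000 UMIs the shares were 13.3 ± 2.04% of cells in the surgery replicates and 8.18 ± 3.98% in the sham replicates (exact p = 0.114, Benjamini-Hochberg adjusted 0.610). Without thinning they were 52.4% and 42.3% (exact p = 0.200), with more UMIs per cell in the surgery replicates. The test shuffled all replicates without regard to batch, so the gap between batches counted as spread in its p-values. In all cells, thinned to 2000 UMIs, the share was 15.5% to 17.1% in batch 1 and 18.6% to 22.1% in batch 2. Shuffled in that way, 4 against 4 replicates have 70 splits and cannot give a two-sided p below 0.0286. At 2000 UMIs the lowest p of the 11 comparisons was 0.114 in basophil-mast progenitors (15.2% after surgery and 11.3% after sham, Benjamini-Hochberg adjusted 0.978).

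No member was called different between surgery and sham in any class or over all cells. Of 380 member tests over 12 comparisons, 0 had an adjusted p under 0.05 by edgeR's quasi-likelihood test with batch as a term, beside 0.054% of all gene tests. At an unadjusted p under 0.05 there were 20 member tests (5.26%), 9 higher and 11 lower, beside 4.55% of all gene tests. DESeq2 called 0 of 408 member tests, beside 0.0315% of all gene tests. At that unadjusted level it had 11 member tests (2.70%), 4 higher and 7 lower, beside 0.813% of all gene tests. DESeq2 was run without the low-count filter, so its share of all gene tests includes genes with very few counts. All comparisons use the same replicates, and all cells include the classes. Values below run over the replicates in the order batch 1 number 1, batch 1 number 2, batch 2 number 1 and batch 2 number 2 within each group. The 3 members with the highest and the 3 with the lowest fold in a comparison are given, among those with a mean of at least 20 CPM.

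**Figure D4:**
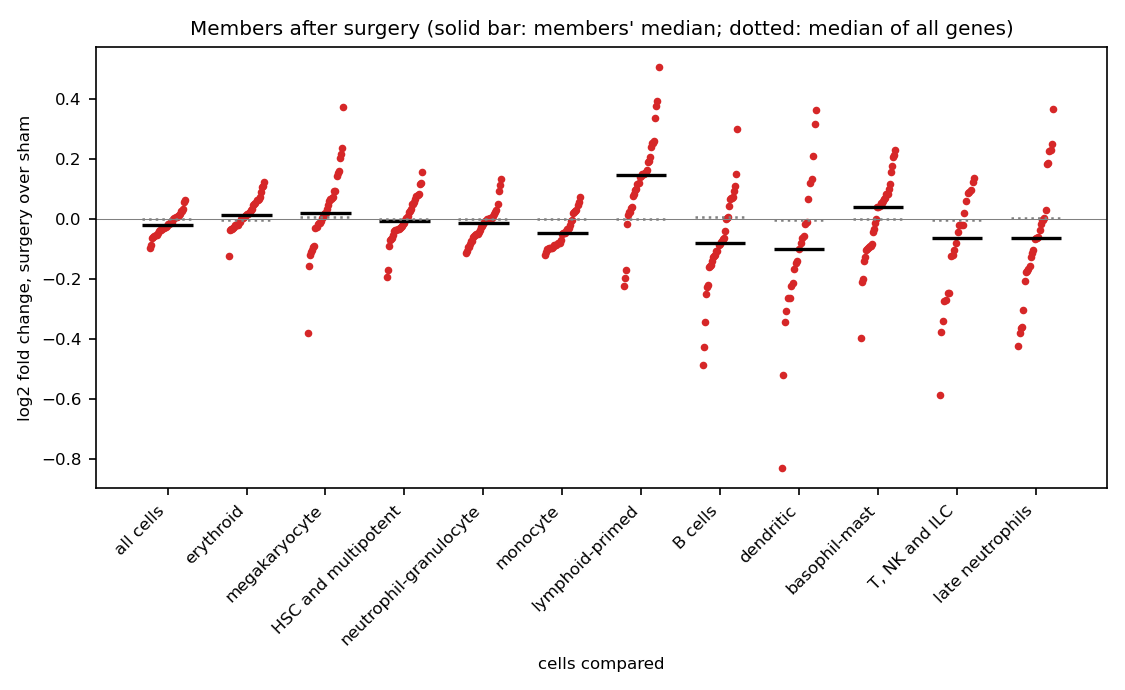
Log2 fold change, surgery over sham, of each tested member in all cells and in each class (points, ordered by value), with the members' median as a solid bar and the median of all genes as a dotted one. The lymphoid-primed points lie mostly above 0 (median 0.15), and none of the points passed the adjusted threshold.

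Over all cells, surgery and sham replicates differed little in ribosome biogenesis genes. The summed level of the members was 6227 ± 188 CPM in the surgery replicates and 6362 ± 157 CPM in the sham replicates (SD, n = 4 each). There, 0 of 34 members were called, beside 0.0348% of all genes higher and 0.0058% lower; 12 had a fold above 0, and the members' median log2 fold change was -0.02, against -0.0016 for all genes. With 1 replicate left out that median ranged from -0.039 (without the first surgery replicate of batch 1) to 0.004 (without the second surgery replicate of batch 1). Nhp2 had 266, 245, 242 and 257 CPM in the surgery replicates and 262, 251, 233 and 234 CPM in the sham replicates, a log2 fold change of 0.06 ± 0.04 (SE). Myc had 104, 91.5, 139.8 and 122 CPM in the surgery replicates and 90.03, 104, 119.7 and 129.6 CPM in the sham replicates, a log2 fold change of 0.06 ± 0.07 (SE). Srm had 119.8, 111, 137 and 135 CPM in the surgery replicates and 121, 115, 129.6 and 132 CPM in the sham replicates, a log2 fold change of 0.03 ± 0.04 (SE). These 3 had the highest folds, and in each the groups overlapped, with batch 2 above batch 1 for Myc in both groups. Rrp9 had 28.2, 26.6, 23 and 25.3 CPM in the surgery replicates and 31.2, 27.7, 27.1 and 25.9 CPM in the sham replicates, a log2 fold change of -0.10 ± 0.05 (SE). Nop2 had 29.5, 26.2, 28 and 29.8 CPM in the surgery replicates and 32.2, 28.2, 31.5 and 30.5 CPM in the sham replicates, a log2 fold change of -0.09 ± 0.06 (SE). Bop1 had 34.6, 33.2, 31.2 and 31.8 CPM in the surgery replicates and 35.6, 35.8, 34.2 and 32.5 CPM in the sham replicates, a log2 fold change of -0.06 ± 0.04 (SE). For these 3 the surgery replicates lay toward the low end, and each group reached into the other. Adjusted p was 1.0 for all 6, and no member separated the groups (beside 0.777% of all genes with every surgery replicate above sham and 0.975% below). At an unadjusted p under 0.05 no member was higher or lower over all cells, beside 2.51% of all genes higher and 4.48% in either direction.

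In HSC and early multipotent progenitors, where Myc was highest, the groups also differed little. Their summed level was 6749 ± 371 CPM in the surgery replicates and 6770.0 ± 349 CPM in the sham replicates (SD, n = 4 each). Here 0 of 34 members were called, beside 0.0745% of all genes higher and 0.0% lower; 16 had a fold above 0, and the members' median log2 fold change was -0.01, against -0.0007 for all genes. With 1 replicate left out that median ranged from -0.04 (without the first surgery replicate of batch 1) to 0.044 (without the second surgery replicate of batch 1). Noc4l had 48.5, 31.9, 35.8 and 34.9 CPM in the surgery replicates and 35.6, 39.9, 31.1 and 28.4 CPM in the sham replicates, a log2 fold change of 0.16 ± 0.14 (SE). Myc had 184, 152, 237 and 238 CPM in the surgery replicates and 151, 169, 201 and 225 CPM in the sham replicates, a log2 fold change of 0.11 ± 0.07 (SE). Nolc1 had 149, 124, 126 and 143 CPM in the surgery replicates and 159, 139, 113 and 117 CPM in the sham replicates, a log2 fold change of 0.08 ± 0.09 (SE). Both groups spanned about the same range for Myc, with the 2 batches farther apart than surgery and sham. Max had 65.8, 60.9, 66.7 and 56.3 CPM in the surgery replicates and 87.3, 65, 72.9 and 66 CPM in the sham replicates, a log2 fold change of -0.19 ± 0.11 (SE). Nop2 had 40.2, 25.2, 28.8 and 36 CPM in the surgery replicates and 37.4, 31.3, 41.9 and 38.6 CPM in the sham replicates, a log2 fold change of -0.17 ± 0.15 (SE). Gar1 had 117, 90.01, 135 and 132 CPM in the surgery replicates and 101, 122, 139 and 139 CPM in the sham replicates, a log2 fold change of -0.09 ± 0.08 (SE). The groups overlapped for each of the 6, the adjusted p was 1.0, and no member separated surgery from sham (0.978% of all genes did so upward and 1.02% downward).

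Lymphoid-primed progenitors were the class in which most members stood higher after surgery, without any call. In this class 0 of 34 members were called, beside 0.237% of all genes higher and 0.0791% lower; 30 had a fold above 0, and the members' median log2 fold change was 0.15, against 0.0006 for all genes. With 1 replicate left out that median ranged from 0.096 (without the second surgery replicate of batch 2) to 0.16 (without the first sham replicate of batch 1). At an unadjusted p under 0.05, 5 members were higher and none lower, beside 4.18% of all genes higher and 8.02% in either direction. Earlier results of these data had shown a MYC list higher in this class, so the direction is no independent finding. The class held 48 to 238 cells per replicate, the fewest of the 6 comparisons described in full.

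For 3 members every surgery replicate lay above every sham replicate, beside 1.76% of all genes above and 2.07% below. Nhp2, the H/ACA protein, had 225, 171, 172 and 189.6 CPM in the surgery replicates and 155, 159, 142 and 139 CPM in the sham replicates, a log2 fold change of 0.38 ± 0.11 (SE); its adjusted p was 0.203. The group means were 189.6 ± 25.4 CPM in the surgery replicates and 149 ± 9.72 CPM in the sham replicates (SD, n = 4 each). A stricter gate asked for a wider lead of the class score over the next class. With it Nhp2 was called by edgeR, at a log2 fold change of 0.56 and an adjusted p of 0.0315. Summed over the 12 comparisons, that gate called 1 of 365 member tests, beside 0.0798% of all gene tests. Over the 20 alternatives run the adjusted p of Nhp2 ranged from 0.0315 to 0.973, with 1 call. Within batches the Nhp2 fold was 0.35 in batch 1 and 0.40 in batch 2. Utp20, a processome subunit, had 44.8, 47.1, 42.4 and 40.3 CPM in the surgery replicates and 20.5, 33.7, 33.6 and 29.7 CPM in the sham replicates. Its log2 fold change was 0.51 ± 0.19 (SE), with an adjusted p of 0.479 by edgeR. The levels of Utp20 rest on 264 UMIs in all, with 7 in the lowest replicate. Mybbp1a, the nucleolar protein, had 184, 177, 153 and 157 CPM in the surgery replicates and 138, 152, 133 and 137 CPM in the sham replicates, a log2 fold change of 0.26 ± 0.10 (SE); its adjusted p was 0.500. Surgery replicates of batch 1 were the highest for Mybbp1a, and the lowest surgery value stood just above the highest sham value.

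Myc, the transcription factor, had 171, 132, 176 and 173 CPM in the surgery replicates and 102, 132, 115 and 154 CPM in the sham replicates, a log2 fold change of 0.33 ± 0.12 (SE). Its mean was 163 ± 20.9 CPM in the surgery replicates and 126 ± 22.6 CPM in the sham replicates (SD, n = 4 each), with a 95% interval of the fold from 0.08 to 0.59 and an adjusted p of 0.468. All surgery replicates but the second of batch 1 were above all sham replicates, and that one was level with a sham replicate. Rrp9, the U3 protein, had 31.1, 22.9, 23.3 and 17.6 CPM in the surgery replicates and 23.4, 20.2, 12.5 and 16.3 CPM in the sham replicates, a log2 fold change of 0.39 ± 0.25 (SE), with adjusted p 0.726 and overlapping groups. Nop2, the 28S methyltransferase, had 17.4, 26.6, 25.5 and 28.5 CPM in the surgery replicates and 38, 30.7, 27.4 and 26.2 CPM in the sham replicates, a log2 fold change of -0.23 ± 0.22 (SE). Rrs1, the 5S particle factor, had 24.9, 43.5, 46.7 and 44.5 CPM in the surgery replicates and 52.7, 42.7, 43.6 and 49.6 CPM in the sham replicates, a log2 fold change of -0.20 ± 0.19 (SE). Noc4l, the 40S factor, had 41.1, 27.8, 25.5 and 33.6 CPM in the surgery replicates and 35.1, 33.7, 39.9 and 27.6 CPM in the sham replicates, a log2 fold change of -0.02 ± 0.21 (SE). These were the lowest folds, with adjusted p of 0.856, 0.850 and 1.0, and the groups overlapped in all. The summed level of the members was 6835, 6148, 6013 and 6144 CPM in the surgery replicates and 6338, 6341, 5469.5 and 5256 CPM in the sham replicates, with overlap: both sham replicates of batch 1 were above all surgery replicates but the first.

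**Figure D5:**
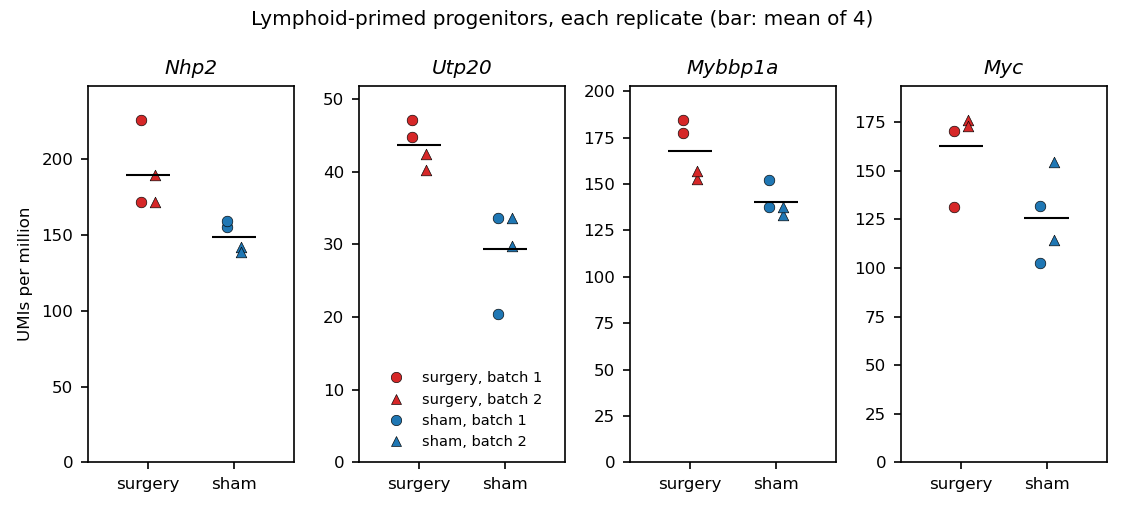
CPM of Nhp2, Utp20, Mybbp1a and Myc in lymphoid-primed progenitors, each replicate as a point (circles batch 1, triangles batch 2) and bars at the mean of 4, surgery left of sham, on axes from 0. The groups are apart for Nhp2, Utp20 and Mybbp1a, by the least for Mybbp1a, and overlap for Myc; the adjusted p was 0.203 for Nhp2 and above that for the others.

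Several other lists leaned to one side in the lymphoid-primed comparison, without a call in any of them. Other MYC targets were above 0 in 20 of 25 genes (median 0.14), other 60S genes in 26 of 41 (0.07), other small subunit genes in 27 of 43 (0.04) and other RNA polymerase I genes in 11 of 17 (0.07). G2 and M phase genes were above 0 in 16 of 16 (median 0.24) and S phase genes in 12 of 14 (0.10). Immediate early and dissociation genes were above 0 in 1 of 13 (-0.24), with summed levels of 1892 to 2594 CPM in the surgery replicates and 2421 to 3209 CPM in the sham replicates. The summed G2 and M phase level was 1294 to 1553 CPM in the surgery replicates and 1013 to 1541 CPM in the sham replicates. Of the marker lists of neighbouring classes, 7 of 9 dendritic markers had a UMI in these cells, with summed levels of 812 to 879 CPM in the surgery replicates and 919 to 1073 CPM in the sham replicates, so that the groups were apart. Cd209a and Klk1 were at 0. The HSC markers (10 of 10) summed to 732 to 1028 CPM in the surgery replicates and 986 to 1279 CPM in the sham replicates, and the B-cell markers (9 of 9) to 449.7 to 838 CPM in the surgery replicates and 227 to 916 CPM in the sham replicates. Cells with few cycle transcripts after thinning made up 21.1, 17.1, 17.0 and 18.2% of the class in the surgery replicates and 16.7, 21.1, 27.7 and 27.9% in the sham replicates, apart in batch 2 and overlapping in batch 1. Median UMIs per cell were 5888, 5588, 9097.5 and 8252 in the surgery replicates and 4662, 4808.5, 5426 and 7508 in the sham replicates. The part of cycling, neighbouring cell types and depth in the members' difference was not tested.

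The members' median in lymphoid-primed progenitors was smaller in batch 1. Within batches of the joint fit it was 0.06 in batch 1, with 25 of 34 above 0, and 0.21 in batch 2, with 30 above 0. The batch by surgery interaction called 0 members (edgeR, beside 0.13% of all genes). When the class was set against others in 1 fit, the class by surgery interaction called 0 members in each of 4 pairs, beside 0.0545% of all genes against HSC and early multipotent progenitors, 0.183% against neutrophil-granulocyte progenitors, 0.254% against monocyte progenitors and 0.0348% against erythroid progenitors. The median interaction of the members was 0.14, 0.16, 0.21 and 0.15 in that order, against -0.0006, 0.004, 0.003 and 0.016 for all genes. The 4 pairs share the lymphoid-primed sums and are not separate evidence. A difference in surgery response between lymphoid-primed progenitors and the other classes was therefore not shown for any single member.

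In neutrophil-granulocyte progenitors, the class with most cells, folds were small on either side of 0. Summed over the members, the level was 6203 ± 232 CPM in the surgery replicates and 6261 ± 168 CPM in the sham replicates (SD, n = 4 each). Here 0 of 34 members were called, beside 0.0301% of all genes higher and 0.0% lower; 12 had a fold above 0, and the members' median log2 fold change was -0.01, against 0.00045 for all genes. With 1 replicate left out that median ranged from -0.035 (without the first sham replicate of batch 2) to -0.0021 (without the second sham replicate of batch 2). Noc4l had 38.1, 39.5, 32.2 and 34.9 CPM in the surgery replicates and 33, 37, 30.6 and 31.5 CPM in the sham replicates, a log2 fold change of 0.13 ± 0.06 (SE). Nhp2 had 273, 267, 248 and 278 CPM in the surgery replicates and 256, 253, 234 and 249 CPM in the sham replicates, a log2 fold change of 0.11 ± 0.04 (SE). Odc1 had 113, 109.8, 116 and 115 CPM in the surgery replicates and 111, 107, 100.3 and 111 CPM in the sham replicates, a log2 fold change of 0.09 ± 0.04 (SE). The surgery replicates were mostly the higher ones for these, and the groups still overlapped. Rrp9 had 28.3, 25.9, 19.7 and 23.9 CPM in the surgery replicates and 27.5, 27, 26.5 and 24.9 CPM in the sham replicates, a log2 fold change of -0.11 ± 0.08 (SE). Nop16 had 90.9, 91.3, 80.1 and 88.2 CPM in the surgery replicates and 90.7, 94.2, 90.9 and 99.8 CPM in the sham replicates, a log2 fold change of -0.10 ± 0.05 (SE). Nop2 had 29.4, 23.4, 24.2 and 28.3 CPM in the surgery replicates and 29.1, 26.9, 28.5 and 29.3 CPM in the sham replicates, a log2 fold change of -0.09 ± 0.08 (SE). Adjusted p was 1.0 for each of the 6, and no member separated the groups (beside 0.894% of all genes upward and 0.984% downward).

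Monocyte progenitors leaned the other way. The 34 members together had 5986 ± 240.0 CPM in the surgery replicates and 6288 ± 259 CPM in the sham replicates (SD, n = 4 each). In this class 0 of 34 members were called, beside 0.0697% of all genes higher and 0.0% lower; 7 had a fold above 0, and the members' median log2 fold change was -0.05, against -0.00046 for all genes. With 1 replicate left out that median ranged from -0.09 (without the first surgery replicate of batch 1) to -0.024 (without the second surgery replicate of batch 1). Myc had 74.5, 69, 121 and 102 CPM in the surgery replicates and 72.6, 78.2, 99.3 and 94.9 CPM in the sham replicates, a log2 fold change of 0.07 ± 0.07 (SE). Nhp2 had 296, 251, 267 and 276 CPM in the surgery replicates and 298, 276, 256 and 253 CPM in the sham replicates, a log2 fold change of 0.03 ± 0.06 (SE). Rrs1 had 48.3, 52.1, 56.8 and 46.7 CPM in the surgery replicates and 55.8, 49.6, 47.7 and 48.7 CPM in the sham replicates, a log2 fold change of 0.03 ± 0.07 (SE). These highest folds were small, and the groups overlapped. Nop58 had 229, 217, 196 and 205 CPM in the surgery replicates and 262, 231, 224 and 215 CPM in the sham replicates, a log2 fold change of -0.12 ± 0.05 (SE). Rrp9 had 26.1, 21.9, 23 and 21.5 CPM in the surgery replicates and 34.9, 24.7, 22.4 and 21.5 CPM in the sham replicates, a log2 fold change of -0.11 ± 0.11 (SE). Nop16 had 89, 84.8, 86.7 and 87.6 CPM in the surgery replicates and 102, 93.3, 90.9 and 91.7 CPM in the sham replicates, a log2 fold change of -0.10 ± 0.05 (SE). Nop16 was the 1 member with every surgery replicate below every sham replicate, beside 0.983% of all genes, and its adjusted p was 1.0, as for the other 5. The p53 target Pmaip1, outside the module, was called higher here (log2 fold change 0.50 ± 0.07, adjusted p = 0.0159) and over all cells (0.48 ± 0.05, adjusted p = 0.0337), the 1 gene of the accompanying lists past the threshold.

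Erythroid progenitors, in which the module was most abundant, gave no call. Together the members had 7997 ± 216 CPM in the surgery replicates and 7906 ± 618 CPM in the sham replicates (SD, n = 4 each). There, 0 of 34 members were called, beside 0.0% of all genes higher and 0.0% lower; 22 had a fold above 0, and the members' median log2 fold change was 0.01, against -0.003 for all genes. With 1 replicate left out that median ranged from -0.0093 (without the first surgery replicate of batch 2) to 0.052 (without the first sham replicate of batch 1). Polr1a had 63.1, 61, 63.7 and 56.7 CPM in the surgery replicates and 67.1, 50.6, 52.5 and 53.8 CPM in the sham replicates, a log2 fold change of 0.12 ± 0.09 (SE). Wdr43 had 156, 182, 163 and 150.1 CPM in the surgery replicates and 183, 152, 131 and 135 CPM in the sham replicates, a log2 fold change of 0.11 ± 0.07 (SE). Myc had 77.6, 68.2, 106 and 64.1 CPM in the surgery replicates and 62.7, 56.2, 73.8 and 98.3 CPM in the sham replicates, a log2 fold change of 0.09 ± 0.13 (SE). Replicates of both groups overlapped for each. Bop1 had 31, 40.3, 38.3 and 32.8 CPM in the surgery replicates and 43, 39.3, 33.1 and 37.9 CPM in the sham replicates, a log2 fold change of -0.12 ± 0.10 (SE). Npm1 had 1166, 1180.4, 1201 and 1193 CPM in the surgery replicates and 1353, 1118, 1111 and 1237 CPM in the sham replicates, a log2 fold change of -0.04 ± 0.05 (SE). Odc1 had 276, 259, 264 and 249 CPM in the surgery replicates and 287, 254, 277 and 242 CPM in the sham replicates, a log2 fold change of -0.04 ± 0.06 (SE). The first sham replicate of batch 1 was the highest of all for Npm1 and Odc1. The adjusted p was 1.0 for all 6, and no member separated the groups (beside 1.0% of all genes upward and 0.766% downward).

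In the remaining classes the folds were wider. The members' median was 0.02 with 21 of 34 above 0 in megakaryocyte progenitors, 0.04 with 18 of 34 above 0 in basophil-mast progenitors, -0.08 with 11 of 34 above 0 in B cells, -0.10 with 6 of 23 above 0 in dendritic cell progenitors, -0.06 with 8 of 29 above 0 in late neutrophils and -0.06 with 7 of 22 above 0 in T, NK and innate lymphoid cells. No member was called in them, beside 0.0295% of all genes higher and 0.0197% lower in B cells, 0.0162% in each direction in late neutrophils and 0.0% in the other 4. These medians moved with single replicates: leaving 1 out, the median ranged from -0.0091 (without the second sham replicate of batch 1) to 0.046 (without the first sham replicate of batch 1) in megakaryocyte progenitors and from -0.011 (without the second sham replicate of batch 2) to 0.058 (without the first sham replicate of batch 1) in basophil-mast progenitors. It ranged from -0.15 (without the second surgery replicate of batch 2) to 0.047 (without the second sham replicate of batch 1) in B cells and from -0.16 (without the second sham replicate of batch 1) to -0.02 (without the first sham replicate of batch 1) in dendritic cell progenitors. In late neutrophils it ranged from -0.11 (without the first surgery replicate of batch 1) to 0.025 (without the first sham replicate of batch 2), and in T, NK and innate lymphoid cells from -0.22 (without the second surgery replicate of batch 2) to 0.01 (without the second surgery replicate of batch 1). In 5 of the 6 the sign turned, dendritic cell progenitors being the exception. In dendritic cell progenitors, late neutrophils and T, NK and innate lymphoid cells only 23, 29 and 22 of the 34 members passed the filter on low counts, and the medians there describe those alone. A few single members had the groups apart. Polr1b had 21, 28.5, 21 and 28.5 CPM in the surgery replicates and 36.9, 29.8, 39.6 and 30.1 CPM in the sham replicates, a log2 fold change of -0.38 ± 0.22 (SE) in megakaryocyte progenitors, where 1.62% of all genes were apart downward. Tcof1 had 47.5, 44.9, 32.3 and 51.7 CPM in the surgery replicates and 68.3, 57.1, 63.3 and 58.3 CPM in the sham replicates, a log2 fold change of -0.42 ± 0.24 (SE) in late neutrophils (1.3%). Ddx21 had 75.8, 109, 139.7 and 158 CPM in the surgery replicates and 214, 164, 174 and 199.7 CPM in the sham replicates, a log2 fold change of -0.59 ± 0.21 (SE) in T, NK and innate lymphoid cells (1.57%). In each of these, every surgery replicate was the lower, and the adjusted p was 0.962, 0.997 and 1.0. No member had every surgery replicate above sham in these 3 classes, beside 1.15%, 1.1% and 1.09% of all genes. None had the groups apart in dendritic cell progenitors (0.988% of all genes above and 1.17% below), basophil-mast progenitors (1.07% and 1.22%) and B cells (1.05% and 1.18%).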

How the data were processed

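Raw UMI counts per gene and cell, with hashtag counts in the same matrices, were deposited by the authors for 2 PIPseq libraries. Cell Ranger and GRCm38 are named in the submitters' processing notes; the version and the counting settings are not given in the sources used here. A floor of 500 genes and 1000 UMIs per barcode and a ceiling of 10% mitochondrial UMIs left 17065 (batch 1, of 18094) and 13568 (batch 2, of 14179). Of these, 14678 (86.0%) and 12264 (90.4%) had exactly 1 hashtag with at least 200 counts. Scrublet doublets (0.568% and 0.730%) were removed, although only 9.30% and 16.5% of barcodes with several hashtags were among them, so doublets may remain. The libraries shared 5 barcodes. Hashtag counts, 22.2% and 16.1% of all counts, were kept out of the sums. The treatment label names each whole library for 1 treatment, while the hashtag labels put both groups in each library; the hashtag names were used.

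Cells were gated to the class with the highest mean marker z-score (lead of at least 0.1, at least 3 markers with a UMI), and gene UMIs were summed per replicate and class. Classes needed 10 cells in every replicate. Tests used edgeR 4.0.16 (filterByExpr, TMM, batch as a term, Benjamini-Hochberg over all genes tested) in R 4.3.3, with limma 3.58.1, and DESeq2 1.42.0 as an alternative. The surgery fits were run on simulated counts with the same spread for every gene, no batch effect and folds larger than the surgery folds given for members. That run does not show how well small folds would be found in these data. Gene positions follow GENCODE M21, which held 32149 of the 32227 gene IDs. Every member was named with its level. Replicate values went to the 3 highest and 3 lowest folds with a mean of at least 20 CPM in each of 6 main comparisons, and members with groups apart were added after their values were seen. Members and lists were chosen with earlier results of these data known.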

Additional observations from a re-analysis of the deposited data

Results flagged for a closer look

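Of 108 groups of 4 replicates tested, 2 held a replicate far from the other 3, and chance alone marks about 1 in 20 such groups. Both were the first surgery replicate of batch 1 in lymphoid-primed progenitors. There Rrs1, the factor that loads the 5S particle, was low at 24.9 CPM, against 43.5, 46.7 and 44.5 CPM in the other surgery replicates. The summed level of the members in the same replicate was high at 6835 CPM, against 6148, 6013 and 6144 CPM.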

How the results depend on the processing

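No member was called between surgery and sham under any alternative run except the stricter gate, which called 1 (Nhp2 in lymphoid-primed progenitors), and none was called when any replicate was left out. Summed over the 12 comparisons, so that a gene can count more than once, 63 gene tests were called. The number was 87 with the stricter gate, 440 with no low-count filter and 26 with no batch term. Batch 1 alone gave 34, batch 2 alone 136, and leaving out a replicate 31 to 72. With hashtag number as a replicate block, 55 gene tests and 0 members were called. Same-numbered replicates did not deviate together (correlations of 0.0599 in batch 1 and -0.0520 in batch 2 over 6839 genes), so the numbers were not taken as pairs, and the block changed no other call. Cells without cycle transcripts could be fitted only in all cells, B cells and dendritic cell progenitors, so cells with few cycle transcripts after thinning were added after seeing the data, in 7 comparisons. Thinned cells could not be fitted in 1 class, dendritic cell progenitors.

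The median log2 fold change of the members in lymphoid-primed progenitors was 0.054 in batch 1 alone, against 0.15 over both batches, and 0.096 to 0.16 with a replicate left out. In all cells the median was -0.02, but 0.033 without cycle transcripts and 0.038 with few; in monocyte progenitors it was -0.12 with few cycle transcripts. Between classes, 11 members were higher in lymphoid-primed progenitors, but 17 on library totals and 3 in Leiden clusters, where 10 classes were compared. In neutrophil-granulocyte progenitors 17 were higher on library totals, against 30. With few cycle transcripts, where 31 members and 6 classes were compared in place of 34 and 11, 15 members were lower in basophil-mast progenitors (beside 18.3% of all genes) and 15 in T, NK and innate lymphoid cells (23.8%), against 25 and 23.

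Uncalled folds that changed sign were as follows, and the cause was not tested. Batch 1 alone gave log2 fold changes of -0.0070 for Nhp2 and -0.034 for Srm in all cells, -0.11 for Nolc1 in HSC and early multipotent progenitors, 0.028 for Noc4l in lymphoid-primed progenitors, and -0.085 for Myc, -0.065 for Nhp2 and -0.050 for Rrs1 in monocyte progenitors. Batch 2 alone gave 0.059 for Nop2 in lymphoid-primed, 0.024 for Rrp9 in monocyte, and -0.079 for Myc and 0.018 for Npm1 in erythroid progenitors. Without cycle transcripts, all cells gave -0.23 for Myc, -0.14 for Srm and 0.025 for Rrp9. With few, all cells gave 0.13 for Rrp9, 0.11 for Nop2 and 0.019 for Bop1, HSC and early multipotent progenitors -0.0055 for Noc4l and 0.033 for Max, neutrophil-granulocyte progenitors 0.053 for Rrp9 and 0.35 for Nop2, and monocyte progenitors -0.18 for Nhp2 and -0.15 for Rrs1. Thinning to 2000 UMIs gave -0.065 for Myc in HSC and early multipotent, 0.086 for Rrp9 in neutrophil-granulocyte, -0.14 for Rrs1 and 0.089 for Nop16 in monocyte, and -0.034 for Polr1a and 0.0098 for Odc1 in erythroid progenitors. Leiden clusters gave -0.018 for Myc in monocyte and 0.0087 for Odc1 in erythroid progenitors. Noc4l in lymphoid-primed progenitors was 0.056 with the stricter gate and 0.052 with the hashtag minimum of 50. Thinned to 1000 UMIs, the share of neutrophil-granulocyte progenitors with a Myc UMI was 0.762 percentage points higher in surgery.

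Leaving out a replicate, Myc ranged from -0.0020 to 0.11 in all cells, -0.0061 to 0.13 in monocyte and -0.018 to 0.29 in erythroid progenitors. Nolc1 ranged from -0.014 to 0.17 in HSC and early multipotent progenitors and Noc4l from -0.15 to 0.085 in lymphoid-primed progenitors. In monocyte progenitors Nhp2 ranged from -0.0067 to 0.096 and Rrs1 from -0.038 to 0.067, and in erythroid progenitors Npm1 from -0.076 to 0.024 and Odc1 from -0.080 to 0.018. The difference in Myc shares ranged from -0.662 to 1.51 percentage points in all cells, -1.90 to 2.08 in HSC and early multipotent progenitors and -0.609 to 2.18 in lymphoid-primed progenitors. Depth limits the low members: in lymphoid-primed progenitors the lowest replicate held 7 UMIs of Utp20, 8 of Rrp9 and 12 of Nop2.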
